A study of Mus musculus with 9 samples.

Results

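Astroglia of the ventricular-subventricular zone (vSVZ), the germinal zone along the lateral ventricles, were compared with astroglia of the rest of the brain (RoB), a pool of olfactory bulb, rostral migratory stream and striatum. The members were chosen per cell by measured values. A member had 1000 to 20000 UMIs (unique transcript counts), under 10% mitochondrial UMIs, at least 5 UMIs summed over Slc1a2, Slc1a3 and Aqp4, at most 1 UMI of Thbs4 plus Ecel1, at most 1 of Dcx, and 0 of Frzb, Top2a and Mki67. It also carried a tissue hashtag, with the largest of the 4 antibody tags SVZ1, SVZ2, ROB1 and ROB2 at 5 counts or more and at 60% or more of the 4. Of 18390 cells that passed the depth and mitochondrial limits, 5199 met the gene rule and 1930 of these (37.1%) also carried a tissue call, 1414 from the vSVZ and 516 from the RoB.

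The 4 libraries, 1 for each pairing of genotype (WT or KO) and age (young or old), each held 2 hashtags per tissue, so that UMIs were summed into 16 sums. The number after a tag (SVZ1 and ROB1, SVZ2 and ROB2) was read as the mouse, giving 8 mice. The labels do not say that same-numbered tags mark the same mouse and the sums do not show it, so that a mouse stands below for a pair of same-numbered sums. All mice were TiCY mice, in which tamoxifen turns on eYFP through a CreERT2 driven by Tlx, and all were given tamoxifen. The WT mice were wild type for interferon receptors and aged 16 (WT young) or 80 weeks (WT old), and the KO mice lacked Ifnar1 and Ifngr1 and were 16 (KO young) or, by the age label, 92 to 105 weeks old (KO old). For KO old the ages at tamoxifen in the protocol plus the 9 weeks that followed come to 2 weeks more than that label. WT young mice were killed 6 weeks after tamoxifen and all others 9 weeks after it. Each condition was 1 droplet reaction, so condition and reaction cannot be told apart. From the vSVZ, eYFP+ and GLAST+ cells were sorted, and from the RoB, eYFP+ and eYFP-/PSANCAM low cells, after removal of CD45+, Ter119+ and O4+ cells in both. GLAST is the product of Slc1a3, so tissue and sorting gate cannot be told apart in any comparison given here.

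Astrocytes clear glutamate and potassium from around synapses, supply metabolites to neurons and shape synapses through secreted proteins. Their gene expression differs with the brain region and the embryonic origin of the cells. In the vSVZ they lie beside the adult neural stem cells, which are themselves astrocyte-like and send neuroblasts along the rostral migratory stream to the olfactory bulb.

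The label of the cells was checked against 15 astrocyte genes that the rule did not use, among them Aldoc, Gja1, Glul, Sox9 and Aldh1l1. All 15 were present in every sum, and their summed level was 69877 to 82240.3 CPM (median 73995) in vSVZ and 60209 to 74396 CPM (median 68557) in RoB. The hashtag call was checked on cells outside the comparison. Of 1281 called cells with at least 3 UMIs of Frzb, a marker of olfactory ensheathing glia, 99.1% were called RoB, and of 357 called cells with at least 4 UMIs of Thbs4 plus Ecel1, markers of quiescent stem cells, 98.04% were called vSVZ. The hashtag sample of WT young is titled as holding others as well, and its counts were used on WT young barcodes only. Within WT young the matching shares were 100.0% of 133 and 97.2% of 106 called cells. Over all libraries 65.1% of the cells with Frzb and 62.1% of those with Thbs4 plus Ecel1 got a tissue call, against 37.1% of the astroglia. The agreement in these cells need not hold for the astroglia. RoB sums held 30 to 99 cells and vSVZ sums 104 to 309. Of 21537 barcodes with 1000 or more UMIs, 41 were found in 2 libraries. At the edge of the gene rule, 31 cells had exactly 5 UMIs of the 3 astrocyte genes and 67 cells with 4 were left out.

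The receptor genes were checked against the genotype labels, since the KO mice lack them. Ifngr1, the interferon-gamma receptor, was at 68.1 to 86.3 CPM in WT and 2.51 to 4.98 in KO vSVZ sums, and at 87.9 to 148 and 0 to 11.9 in RoB sums. Ifnar1, the type I interferon receptor, was at 21.1 to 35.6 and 1.26 to 6.55 in vSVZ and at 13.8 to 34.1 and 2.92 to 4.22 in RoB. WT and KO sums did not overlap for either gene.

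The rule limited the depth and the mitochondrial share of each cell, so both are given without a test. The median of UMIs per cell averaged 7197 ± 1082 (SD, n = 8 mice) in vSVZ and 7389 ± 928 in RoB. The median mitochondrial share per cell was 2.74 ± 0.168% in vSVZ and 3.89 ± 0.344% in RoB, with the lower value in vSVZ in 8 of 8 mice, and its part in the results was not tested. With the 13 mitochondrially encoded genes left out before scaling, 658 genes were called in the comparison that follows, all of them among the 676 called with them. The share of cells with an eYFP UMI, which the rule did not use, was 12.7 ± 7.83% in vSVZ and 11.05 ± 8.08% in RoB (two-sided exact sign-flip permutation test over mice, p = 0.469). By the same test, leaving out 1 mouse gave p from 0.0469 (without KO young mouse 2) to 0.797 (without WT young mouse 2). Cells were sorted by eYFP in both tissues, so this share depends on the mix of sorted cells.

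The tissues differed in a set of genes beside the astrocyte genes checked above, of which 13 of 15 were not called (the exceptions were Clu and Slc4a4). Of 7476 genes tested over the 8 mice, 676 (9.04%) passed at an adjusted p under 0.05, 297 (3.97%) as higher in vSVZ and 379 (5.07%) as higher in RoB (edgeR quasi-likelihood test with the mouse as a block, Benjamini-Hochberg over all genes). The 676 include the 13 mitochondrially encoded genes, all on the RoB side, which are no result since the rule limited their share. They also include Slc1a2, Slc1a3 and Aqp4, 1 on the vSVZ side and 2 on the RoB side. These 3 are no result either, since the rule chose the cells by them. The median log2 difference of all genes tested was -0.00121. The vSVZ and RoB sums did not overlap for 138 genes (1.85%). Differences toward RoB reached further: the leading RoB genes differed by up to 43.9-fold and the leading vSVZ genes by up to 4.89-fold.

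**Figure D1:**
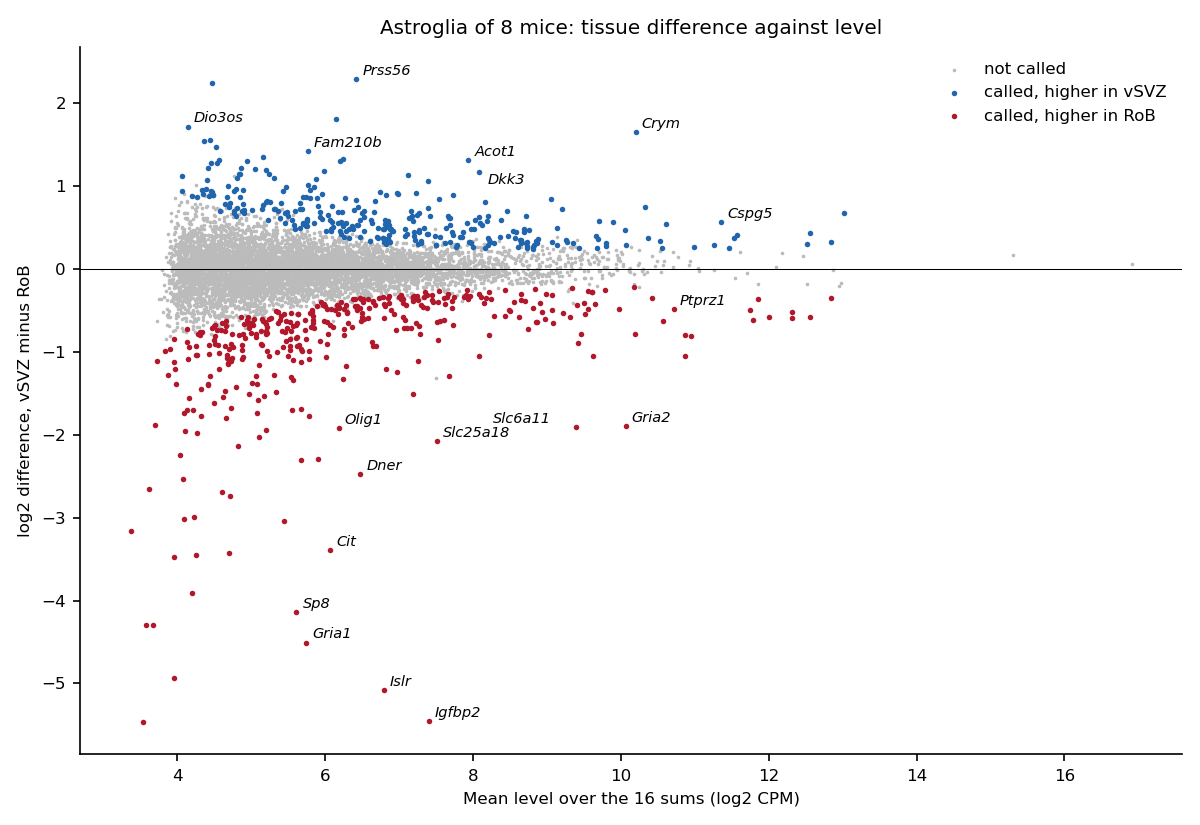
Log2 difference of vSVZ minus RoB astroglia against the mean level over the 16 sums (log2 CPM), 1 point per gene tested, with the 297 genes called higher in vSVZ in blue, the 379 called higher in RoB in red and the rest in grey. Among the leading genes the RoB side extends to -5.46 (Igfbp2) and the vSVZ side to 2.29 (Prss56), and Crym stands out as a vSVZ gene at a high level.

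Levels are given as CPM, in which the UMIs of a gene are scaled to the same total in every sum, and differences as log2 of vSVZ over RoB from the fitted model, so that a negative value means higher in RoB. The genes named as leading were the 12 with the largest difference in each direction among called genes with a mean log2 CPM of 4 or more and the same sign in all 8 mice. There were 174 genes that met these conditions as higher in vSVZ and 216 as higher in RoB.

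Igfbp2 (GRCm38 chr1:72824503-72852474), which encodes a binding protein of insulin-like growth factors, showed the largest difference of the leading genes. Its level was 0.996 to 17.5 CPM (median 6.73) in vSVZ and 97.2 to 629 CPM (median 402) in RoB, a log2 difference of -5.46 ± 0.18 (SE), adjusted p = 7.62e-19. Islr (chr9:58156268-58204306), a secreted leucine-rich repeat protein with an immunoglobulin domain, followed with 4.396 to 11.1 CPM (median 7.09) in vSVZ and 107 to 445 CPM (median 260.2) in RoB (-5.08 ± 0.13 (SE), adjusted p = 1.77e-21). For both genes every RoB sum lay above every vSVZ sum. Gria1 (chr11:57011387-57330244), a subunit of AMPA-type glutamate receptors, was measured at 1.13 to 13.97 CPM (median 3.97) in vSVZ and 63.5 to 211 CPM (median 140.1) in RoB (-4.51 ± 0.22 (SE), adjusted p = 2.13e-14). Sp8 (chr12:118846329-118852576) and Zic1, zinc finger transcription factors known from olfactory bulb interneurons, had medians of 5.704 and 109.6 CPM and of 0.314 and 43.9 CPM in vSVZ and RoB, with log2 differences of -4.14 ± 0.32 and -3.91 ± 0.42. Zic1 was at or near 0 in several vSVZ sums, so the size of its difference rests on few UMIs. The lowest RoB sum of Sp8, at 50.6 CPM, exceeded the highest vSVZ sum, at 15.7 CPM.

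The other leading RoB genes had log2 differences between -3.45 and -2.74. They were the zinc finger factor gene Tshz2, Sez6, the citron kinase gene Cit, the protease gene Prss23, the phosphatase inhibitor gene Ppp1r14c, 1500015O10Rik and the heparan sulfate sulfotransferase gene Hs3st3b1. Cit was the most abundant of them in RoB, at 4.95 to 45.8 CPM (median 9.94) in vSVZ and 105 to 178 CPM (median 153) in RoB. The sums of the 2 tissues did not overlap for 10 of the 12 leading RoB genes. The exceptions were Prss23, whose lowest RoB sum was 14.6 CPM, and 1500015O10Rik, whose lowest RoB sum was 5.96 CPM.

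Crym (chr7:120186380-120202111), which encodes a thyroid hormone-binding protein of the cytosol, was the most abundant leading gene of the vSVZ. It was measured at 1237 to 1975 CPM (median 1726) in vSVZ and 212 to 828 CPM (median 569.9) in RoB, a difference of 1.65 ± 0.15 (SE), adjusted p = 6.4e-09. Every vSVZ sum lay above every RoB sum. At an equal depth of 2000 UMIs per cell, 53.4% of vSVZ and 18.5% of RoB astroglia had a Crym UMI, against 1.78% of microglia of the same libraries, which should lack it. Without thinning the shares were 62.1%, 22.9% and 2.81%, at median depths of 7314, 7218.5 and 5050 UMIs. The thinned shares rest on the 1392 vSVZ, 513 RoB and 225 microglial cells with at least that depth, of 1414, 516 and 249. The matching thinned shares for Igfbp2 were 1.01%, 20.1% and 0.444%.

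Prss56 (chr1:87183313-87188405), a serine protease gene, had the largest difference toward the vSVZ, at 34.8 to 252 CPM (median 100.0) in vSVZ and 1.86 to 74.5 CPM (median 19.1) in RoB (2.29 ± 0.28 (SE), adjusted p = 1.14e-06). Its levels overlapped between the tissues although it was higher in vSVZ in all 8 mice, and it also stood on the list of olfactory ensheathing glia markers used here. Acot1 (chr12:84009490-84018371), an acyl-CoA thioesterase gene, was measured at 249 to 439 CPM (median 292) in vSVZ and 72.4 to 208 CPM (median 124) in RoB (1.31 ± 0.11 (SE), adjusted p = 1.35e-09), without overlap. The extracellular protein gene Ccdc80 (medians of 92.4 and 39.8 CPM) and Fam210b, which encodes a mitochondrial protein (63.98 and 22.7 CPM), did not overlap either. The nuclear receptor gene Nr2f1 (1.305 ± 0.17) and the homeobox gene Msx1 (1.298 ± 0.22) led among transcription factors.

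The other leading vSVZ genes described were less abundant, with vSVZ medians from 17.9 to 32.4 CPM. They were Dlk1, a membrane protein of the Delta-like family, the neutral sphingomyelinase gene Smpd3, the predicted gene Gm5083 and Dio3os, an antisense RNA at the Dio3 locus. Whether counting used the strand is not given in the sources used here, so reads of Dio3os and its antisense partner cannot be told apart. All 4 were higher in vSVZ in 8 of 8 mice, and their log2 differences lay between 1.22 and 1.72.

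**Figure D2:**
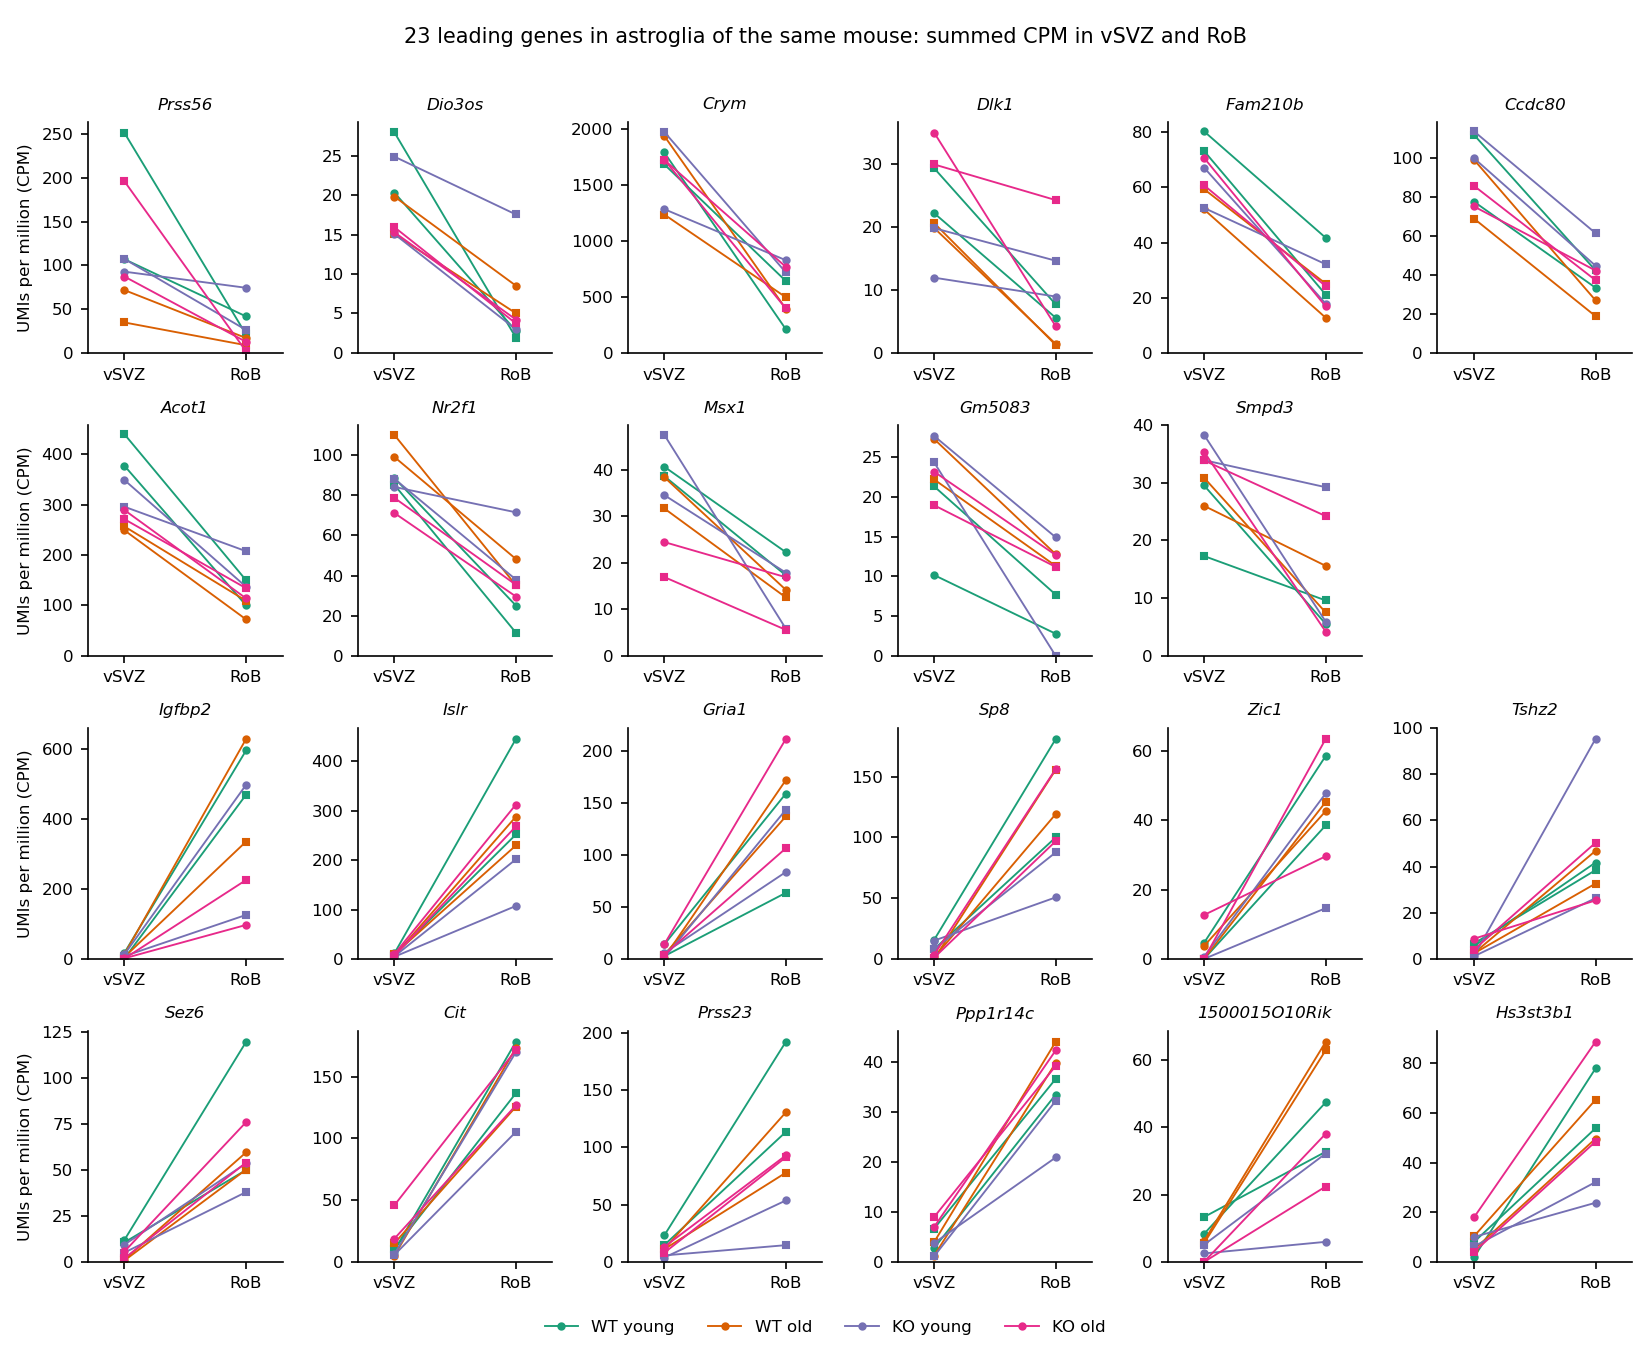
Summed level (CPM) of 23 leading genes in vSVZ and RoB astroglia, with a line joining the 2 sums of a mouse, circles for mouse 1 and squares for mouse 2 of each library, and colours for the 4 libraries. All 8 lines fall from vSVZ to RoB for the upper 11 genes and rise for the lower 12, and Crym lies between 1237 and 1975 CPM in vSVZ but between 212 and 828 CPM in RoB.

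Within single libraries, of 2 mice each, fewer genes passed. In the young libraries 308 of 7476 genes passed in WT (4.12%), 127 of them higher in vSVZ (1.7%) and 181 higher in RoB (2.42%), and 150 in KO (2.01%), 53 higher in vSVZ (0.709%) and 97 higher in RoB (1.3%). In the old libraries 239 passed in WT (3.2%), 98 higher in vSVZ (1.31%) and 141 higher in RoB (1.89%), and 130 in KO (1.74%), 55 higher in vSVZ (0.736%) and 75 higher in RoB (1.0%). RoB sums were smallest in the KO libraries, with 30 to 70 cells against 61 to 99 in the WT ones, and the part of cell number in these counts was not tested. Igfbp2, Islr, Gria1, Sp8, Zic1, Tshz2, Sez6, Cit, Prss23 and Ppp1r14c passed in all 4 libraries, with Islr at -5.23 (WT) and -4.96 (KO) in young mice and -4.94 (WT) and -5.15 (KO) in old mice. Among leading vSVZ genes Crym, Ccdc80 and Acot1 passed in all 4, with Crym at 2.099 (WT) and 1.07 (KO) in young mice and 1.78 (WT) and 1.66 (KO) in old mice. Gm5083 and Smpd3 passed in none of the libraries singly, while they passed over all mice.

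**Figure D3:**
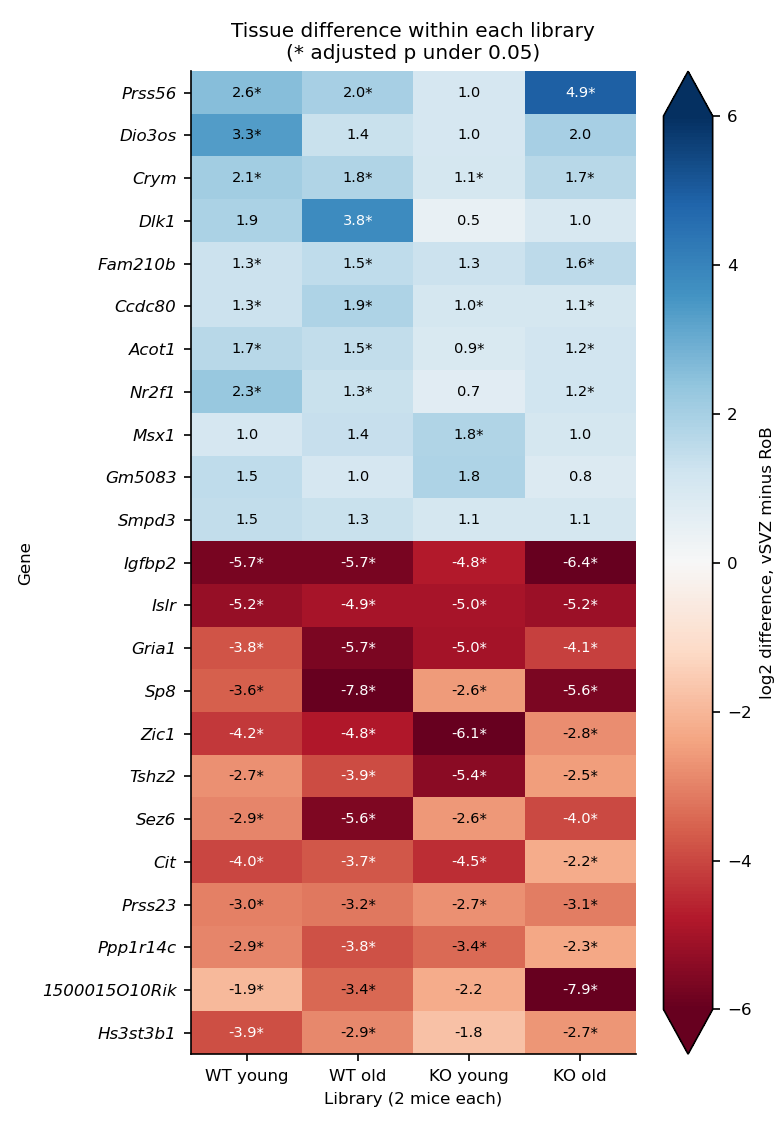
Log2 difference of vSVZ minus RoB astroglia within each library for 23 leading genes, with blue for higher in vSVZ, red for higher in RoB and a star for an adjusted p under 0.05. The sign is the same in all 4 libraries for each of these genes, and Crym ranges from 1.07 in KO young to 2.099 in WT young.

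Astroglia with a UMI of Igfbp2 or Islr were a large part of the RoB and a small part of the vSVZ. They made up 53.1% of RoB astroglia and 6.01% of vSVZ astroglia, and per mouse 44.7 to 68.9% in RoB and 4.55 to 7.87% in vSVZ, without overlap. These genes were chosen after their differences were seen, so the split is a description. Gria1 was at 199.8 CPM in RoB cells with a UMI of either gene, 47.3 in RoB cells without and 6.06 in vSVZ cells without. Sp8 was at 204 CPM in RoB cells with a UMI of either gene, 16.9 in RoB cells without and 6.26 in vSVZ cells without. Both genes were thus found mostly in the RoB cells with Igfbp2 or Islr.

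Crym showed the opposite order, at 217 CPM in RoB cells with a UMI of either gene, 900.1 in RoB cells without and 1709.6 in vSVZ cells without. Gria2 was at 2333 CPM in RoB cells with a UMI of either gene, 1012 in RoB cells without and 479 in vSVZ cells without. Slc6a11, the GABA transporter GAT-3, was at 1426 CPM in RoB cells with a UMI of either gene, 655 in RoB cells without and 291 in vSVZ cells without. For these 3 genes the RoB cells without Igfbp2 or Islr lay between those other groups. The median depth was 7542.5 UMIs in RoB cells with a UMI of either gene and 6953 in those without. A cell that expresses either gene can lack a UMI of it at such depths, so the RoB cells without one may include such cells. Whether they are a separate kind of cell was not tested. In the 85 vSVZ cells with a UMI of either gene, Crym was at 954 CPM, Gria2 at 528 and Slc6a11 at 276, so that within the vSVZ the split left Gria2 and Slc6a11 near the level of the other vSVZ cells. Itih3 was at 263 CPM in RoB cells with a UMI of either gene, 364 in RoB cells without and 123 in vSVZ cells without. Olig1 differed among libraries. In RoB cells with and without a UMI of either gene it was at 175 and 47.99 CPM (WT) and 159.9 and 86.7 CPM (KO) at the young age and at 111 and 97.9 CPM (WT) and 76.5 and 307 CPM (KO) at the old age, and in vSVZ cells at 107 and 32.3 CPM over all libraries.

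**Figure D4:**
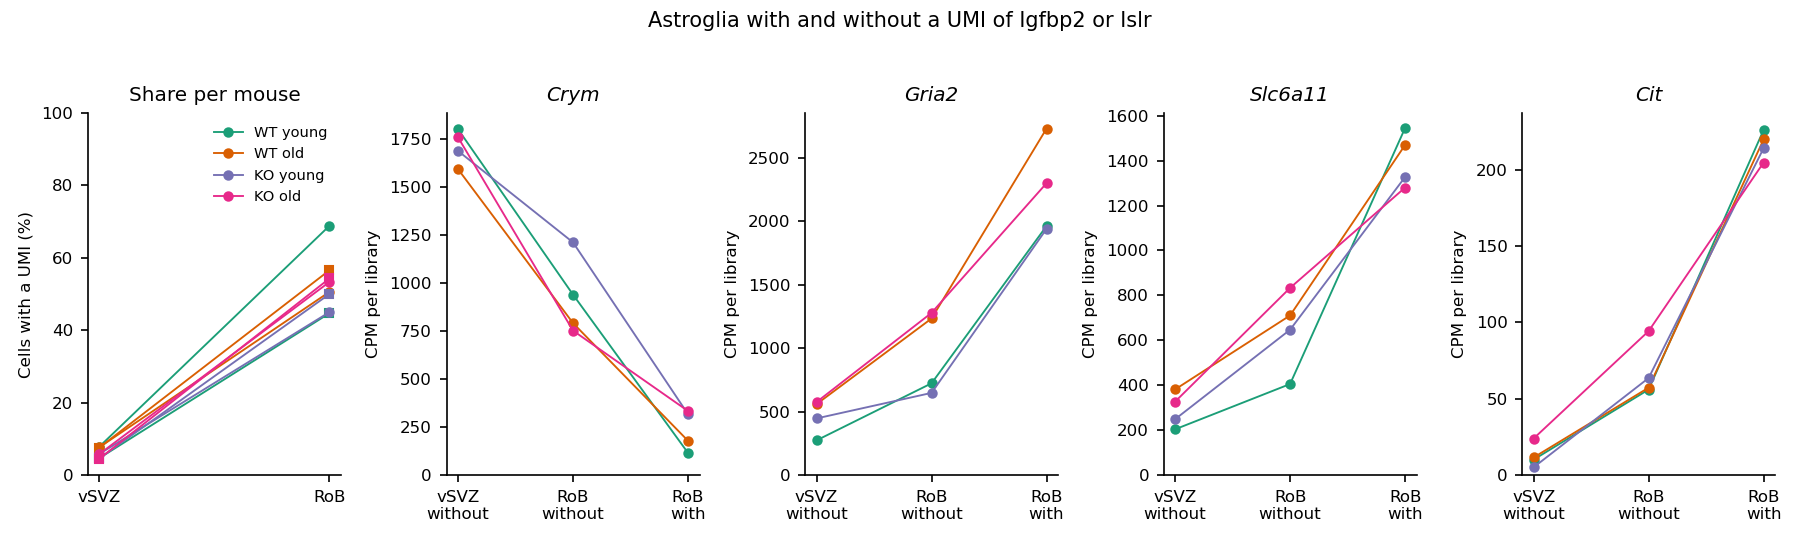
Left, percent of astroglia with a UMI of Igfbp2 or Islr per mouse (circles mouse 1, squares mouse 2). The other panels show the level (CPM per library) of Crym, Gria2, Slc6a11 and Cit in vSVZ cells without such a UMI, RoB cells without and RoB cells with one. In every library Crym falls and the other 3 genes rise along these 3 groups of cells.

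Without these cells 34 of 6252 genes tested were called, 7 higher in vSVZ and 27 higher in RoB, against 482 of 7532 in the same 6 mice with all their cells. WT young mouse 1 and KO old mouse 1 dropped out because fewer than 20 RoB cells were left, and fewer cells and the loss of these particular cells cannot be told apart in the count. In the 6 mice, 411 genes were called with all cells and still tested without these cells. Their median absolute log2 difference was 0.66 with all cells and 0.44 without these cells, and 406 kept their sign. They were chosen for their difference with all cells, and over all 6252 genes tested in both fits the medians were 0.15 and 0.16. In the same 6 mice Crym went from 1.55 to 0.898, Slc6a11 from -1.82 to -1.15, Gria2 from -1.86 to -1.07 and Cit from -3.38 to -2.24, all still called. Slc25a18 (-2.11 to -1.61), Acot1 (1.25 to 0.91), Dkk3 (1.16 to 0.802), Fam210b (1.48 to 1.099), Sox11 (1.14 to 0.88) and Itih3 (-1.56 to -1.74) were also still called. Kcnj10 went from -0.998 to -0.41 and Ptprz1 from -0.45 to -0.25, no longer called. Also lost were the calls of Prss56, Nr2f1, Msx1, Ccdc80, Six3, Kcnj16, Ednrb, Hes5, Notch1, C4b, Cspg5, Clu, Vcam1 and Phgdh, among others. Without these cells, 25 named gene results kept the main direction and side of the threshold, 46 fell below the threshold and 1 turned. With all cells of the 6 mice, 76 kept both and 3 fell below it. The part of fewer cells in the lost calls was not tested. These genes are described elsewhere with all cells.

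Genes of mature astrocyte function were called in both directions. Of the list, 44 of 46 members were tested, 7 passed as higher in vSVZ and 11 as higher in RoB (40.9% called), with a median log2 difference of 0.00177. For this and the lists that follow, the share called over all genes was 9.04% and the median -0.00121. The largest differences lay toward the RoB, in genes for transport and ion handling. Slc6a11 (chr6:114131241-114249952) was at 197 to 405 CPM (median 285) in vSVZ and 883 to 1294 CPM (median 1063) in RoB (-1.91 ± 0.104 (SE), adjusted p = 1.09e-13). Slc25a18, a mitochondrial glutamate carrier gene, was at 41.3 to 105 CPM (median 80.3) in vSVZ and 281 to 352 CPM (median 323) in RoB (-2.08 ± 0.11 (SE), adjusted p = 6.27e-14). The potassium channel genes Kcnj10 (medians of 102 and 215 CPM, log2 difference -1.12 ± 0.11) and Kcnj16 (12.8 and 59.6 CPM, -2.03 ± 0.21) were also higher in RoB in all 8 mice. None of these 4 genes overlapped between the tissues. Differences toward the vSVZ were smaller, with Fjx1 at 0.74 ± 0.103 and the metallothionein genes Mt1 and Mt2 at 0.32 ± 0.0665 and 0.36 ± 0.0752.

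Of the genes known from neural stem cells and radial glia, 25 of 34 members were tested, 7 passed as higher in vSVZ and 7 as higher in RoB (56% called), with a median log2 difference of 0.21. Sox11, a transcription factor of neural progenitors, was at 108 to 294 CPM (median 193) in vSVZ and 56.8 to 167 CPM (median 92.8) in RoB (1.06 ± 0.13 (SE), adjusted p = 7.55e-07). Nr2e1, which encodes Tlx, was higher in vSVZ by 0.45 ± 0.0991. In the other direction lay Itih3, a hyaluronan-binding matrix protein (123 and 310.2 CPM, -1.29 ± 0.16), the receptor phosphatase gene Ptprz1 (1381 and 1920.5 CPM, -0.48 ± 0.0677), the transcription factor gene Pax6 (21.1 and 50.5 CPM, -1.16 ± 0.18), Sfrp1 and Fabp7. The list did not lie on 1 side. The rule had left out cells with more than 1 UMI of Thbs4 plus Ecel1 or of Dcx, and cells with Top2a or Mki67. What this selection did to the values of the list was not tested.

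Of the regional transcription factors, 27 of 55 members were tested, 8 passed as higher in vSVZ and 7 as higher in RoB (55.6% called), with a median log2 difference of 0.0996. Beside Sp8 and Zic1, the RoB side held Pax6, Etv1 (-0.98 ± 0.16) and Tcf7l2 (442 and 618 CPM, -0.498 ± 0.0738). The vSVZ side held Nr2f1, the homeobox genes Six3 (42.1 to 94.5 CPM (median 75.1) in vSVZ and 11.9 to 73.1 CPM (median 25.8) in RoB, 1.18 ± 0.17 (SE), adjusted p = 1.49e-05) and Emx2 (0.74 ± 0.13), and the nuclear factor I genes Nfia, Nfib and Nfic at 0.25 to 0.297. Six3 was higher in vSVZ in 8 of 8 mice. Of the list of astrocyte genes with regional expression, 21 of 30 members were tested, 4 passed as higher in vSVZ and 8 as higher in RoB (57.1% called), with a median log2 difference of 0.0807. It held Igfbp2, Islr and Crym, and the list was written with earlier results of these data known, so that it is no independent evidence of a direction.

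Of genes for receptors and transporters of neurotransmitters, 20 of 32 members were tested, 3 passed as higher in vSVZ and 8 as higher in RoB (55% called), with a median log2 difference of -0.21. Gria2 (chr3:80681450-80802835), the AMPA receptor subunit that limits calcium entry, was measured at 238 to 630.0 CPM (median 477) in vSVZ and 1085 to 2081 CPM (median 1691) in RoB (-1.89 ± 0.101 (SE), adjusted p = 7.99e-14). Ednrb, an endothelin receptor gene, had medians of 481 and 1041 CPM (-1.05 ± 0.0941). Gabra2, a subunit of GABA-A receptors (-1.77 ± 0.18), and the adenosine receptor gene Adora1 (-1.09 ± 0.23) lay on the same side. The 3 genes higher in vSVZ were the GABA-B receptor subunits Gabbr1 (0.47 ± 0.11) and Gabbr2 (0.57 ± 0.12) and the metabotropic glutamate receptor gene Grm3 (0.55 ± 0.0993).

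Signalling pathways held single genes with large differences in either direction. In the Notch pathway, through which neighbouring cells hold each other undifferentiated, 13 of 18 members were tested, 3 passed as higher in vSVZ and 2 as higher in RoB (38.5% called), with a median log2 difference of 0.15. Dner, a membrane protein with Delta-like repeats, was at 15.9 to 55.4 CPM (median 24.4) in vSVZ and 114 to 276 CPM (median 163) in RoB (-2.48 ± 0.16 (SE), adjusted p = 7.86e-12). The target gene Hes5 (medians of 1078 and 726 CPM, 0.56 ± 0.0888) and the receptor gene Notch1 (77.3 and 51.2 CPM, 0.55 ± 0.14) were higher in vSVZ, while the receptor gene Notch2 (340.1 and 414 CPM, -0.31 ± 0.089) was higher in RoB. The call of Notch2 was made in 15 of 29 alternative settings and not by DESeq2 (adjusted p = 0.0755).

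In the BMP and TGF-beta pathway, 18 of 30 members were tested, 2 passed as higher in vSVZ and 2 as higher in RoB (22.2% called), with a median log2 difference of -0.0665. Both genes higher in RoB encode extracellular modulators, the latent TGF-beta binding protein Ltbp1 (9.91 to 42.8 CPM (median 23.7) in vSVZ and 67.2 to 144 CPM (median 122) in RoB, -2.29 ± 0.18 (SE), adjusted p = 2.14e-10) and the BMP antagonist Chrdl1 (16.5 and 61.8 CPM, -1.94 ± 0.22). Both genes higher in vSVZ are targets of BMP signalling, Id1 (143 and 98.3 CPM, 0.61 ± 0.12) and Id3 (322 and 194 CPM, 0.63 ± 0.13). In the Wnt pathway, 16 of 26 members were tested, 3 passed as higher in vSVZ and 5 as higher in RoB (50% called), with a median log2 difference of -0.14. The secreted protein gene Dkk3 was at 255 to 375 CPM (median 355) in vSVZ and 77.9 to 222 CPM (median 153) in RoB (1.17 ± 0.0947 (SE), adjusted p = 6.19e-10), and the target gene Axin2 was higher in vSVZ by 0.81 ± 0.21. The ligand gene Wnt5a (medians of 2.42 and 19.98 CPM, -3.17 ± 0.37), the ligand gene Wnt7a (-0.65 ± 0.18) and the secreted inhibitor gene Sfrp1 (115 and 226 CPM, -0.86 ± 0.14) were higher in RoB. Dkk3 and Wnt5a did not overlap between the tissues.

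Of extracellular matrix and adhesion genes, 33 of 45 members were tested, 3 passed as higher in vSVZ and 7 as higher in RoB (30.3% called), with a median log2 difference of 0.00832. The proteoglycan gene Cspg5 was abundant and did not overlap, at 2645 to 3390.2 CPM (median 2984) in vSVZ and 1656 to 2589 CPM (median 1985) in RoB (0.57 ± 0.0685 (SE), adjusted p = 7.53e-07). The cell adhesion gene Vcam1 (292 and 189 CPM, 0.63 ± 0.086) and the glypican gene Gpc6 (1.09 ± 0.18) were higher in vSVZ, while another glypican gene, Gpc4 (-1.28 ± 0.29), the cadherin gene Cdh4 (12.1 and 46.6 CPM, -1.67 ± 0.18) and the integrin gene Itga6 (46.4 and 81.4 CPM, -0.91 ± 0.13) were higher in RoB.

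Of lipid and cholesterol genes, 35 of 36 members were tested, 4 passed as higher in vSVZ and 7 as higher in RoB (31.4% called), with a median log2 difference of -0.076. The lipid carrier gene Clu was at 5959 to 8862 CPM (median 6139) in vSVZ and 4160.1 to 5812 CPM (median 4868) in RoB (0.43 ± 0.0699 (SE), adjusted p = 6.57e-05). Fabp5, a fatty acid-binding protein (0.399 ± 0.0745), was higher in vSVZ and its relative Fabp7 (-0.79 ± 0.15) in RoB. The cholesterol efflux gene Abcg1 (medians of 7.43 and 32.97 CPM, -1.98 ± 0.29) and the lipocalin gene Apod (-1.49 ± 0.35) were higher in RoB.

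**Figure D5:**
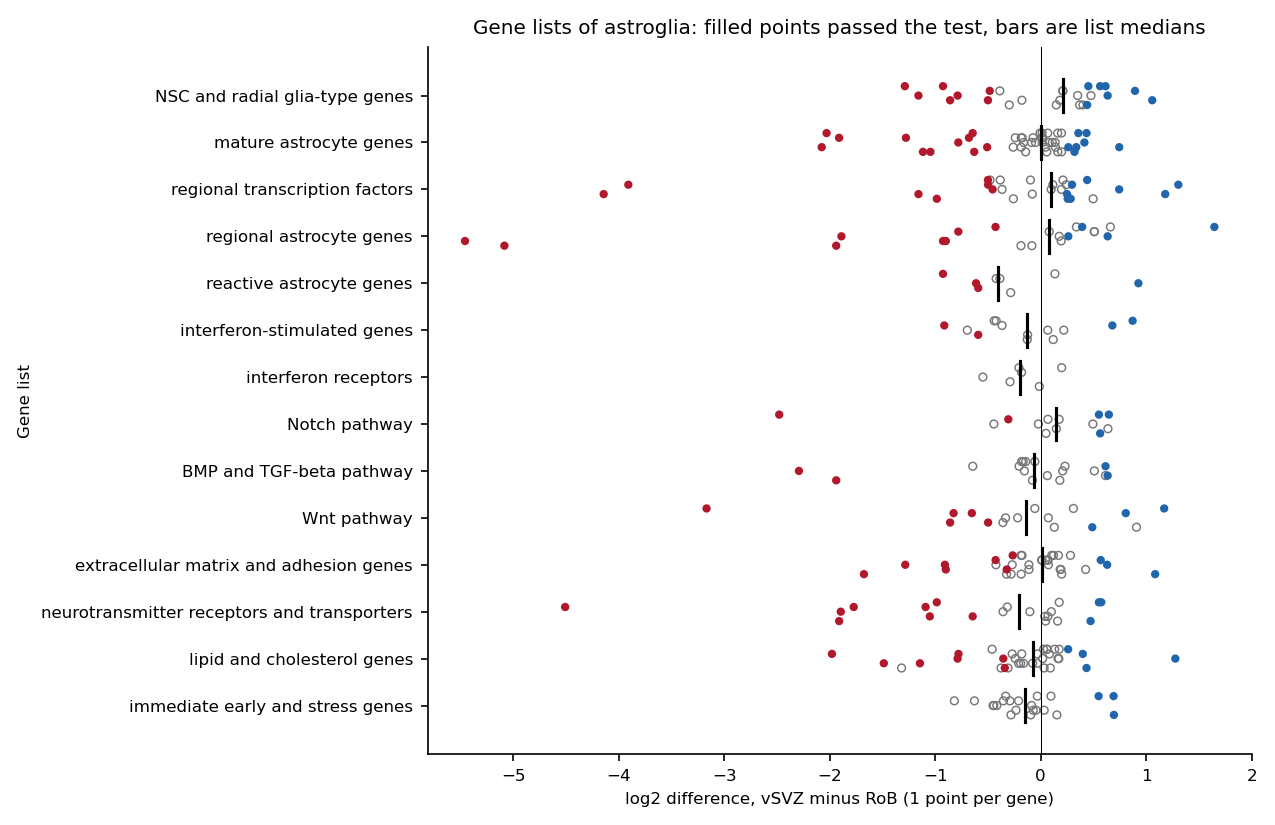
Log2 difference of vSVZ minus RoB astroglia for each tested gene of 14 lists, filled in blue (higher in vSVZ) or red (higher in RoB) where it passed the test and open where it did not, with the list median as a bar. Called genes lie on both sides in 12 lists, and the immediate early and stress genes are called on the vSVZ side only. No interferon receptor or kinase gene is called over all mice, but the KO mice among them lack Ifnar1 and Ifngr1.

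Of the interferon receptor and kinase genes, Ifnar1 and Ifngr1 are missing in the KO mice, so that their difference between the tissues was read in the WT libraries only. Ifngr1 differed by -0.900 ± 0.25 (SE) in WT young (adjusted p = 0.0299), with 73.9 and 73.2 CPM in vSVZ and 122 and 148 CPM in RoB. In WT old the difference was -0.21 ± 0.24 (SE) (adjusted p = 0.856), with 68.1 and 86.3 CPM in vSVZ and 89.4 and 87.9 CPM in RoB. Whether these 2 libraries differed was not tested. Ifnar1 did not pass in either, at 0.23 and 0.32. Of the other 4 genes tested, Ifnar2, Ifngr2, Jak1 and Jak2, none passed over all mice by edgeR or DESeq2, and 0 had an unadjusted p under 0.05 by edgeR.

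Of interferon-stimulated genes, 13 of 41 members were tested, 2 passed as higher in vSVZ and 2 as higher in RoB (30.8% called), with a median log2 difference of -0.13. Ifitm3, a membrane protein that restricts virus entry, was at 33.6 to 114 CPM (median 57.1) in vSVZ and 22.6 to 48.5 CPM (median 34.99) in RoB (0.87 ± 0.21 (SE), adjusted p = 0.00622), higher in vSVZ in 6 of 8 mice. Its difference was 1.05 (WT) and 0.47 (KO) in young mice and 1.79 (WT) and -0.28 (KO) in old mice. Gbp7, a guanylate-binding protein, was higher in vSVZ in 8 of 8 mice (47.4 and 25.2 CPM, 0.68 ± 0.17). The MHC class I gene H2-D1 (74.7 and 109.8 CPM, -0.59 ± 0.12) and Lgals3bp (16.8 and 32.6 CPM, -0.91 ± 0.21) were higher in RoB. MHC class I genes share reads with near-identical copies, so the value of H2-D1 is uncertain.

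Of genes of reactive astrocytes, 8 of 32 members were tested, 1 passed as higher in vSVZ and 3 as higher in RoB (50% called), with a median log2 difference of -0.404. The complement gene C4b was at 69.3 to 175 CPM (median 118) in vSVZ and 36.5 to 106 CPM (median 56.8) in RoB (0.93 ± 0.11 (SE), adjusted p = 7.05e-07) and was higher in vSVZ in all 8 mice. Gfap was called higher in RoB by edgeR (-0.93 ± 0.25 (SE), adjusted p = 0.0166) with medians of 33.1 and 38.1 CPM, in 6 of 8 mice, but not by DESeq2 (-0.88, adjusted p = 0.218). With a stricter hashtag call, which only the WT mice kept enough cells for, its difference turned to 0.0294 and was not called. S100a10 (-0.61 ± 0.19) was not called by DESeq2 either (adjusted p = 0.0993), nor in the 6 mice above, where it went from -0.45 to 0.0922 without the cells with Igfbp2 or Islr. Of immediate early and stress genes, 22 of 32 members were tested, 3 passed as higher in vSVZ and 0 as higher in RoB (13.6% called), with a median log2 difference of -0.15. The 3 called were Ccn1 (152 and 102 CPM, 0.69 ± 0.14), Cebpd (79.7 and 49.2 CPM, 0.69 ± 0.14) and Egr1 (278 and 179.9 CPM, 0.55 ± 0.14). The list's median lay on the other side from these 3 genes. Genes of this list are known to respond to cell dissociation.

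Markers of other cell types were present in both tissues, and those of microglia were higher in part of the RoB sums. The 12 microglia markers summed to 66.5 to 90.5 CPM (median 77.3) in vSVZ and 65.3 to 2863 CPM (median 798) in RoB, and were above the vSVZ range in 5 of 8 RoB sums. The WT old RoB sums (76.6 and 65.3 CPM) and that of KO old mouse 1 (67.6 CPM) were not above it. Per sum, 1 to 10 RoB cells and 4 to 14 vSVZ cells held more than 2 UMIs of these markers. All 12 had a higher mean in RoB, 11 of them at 10 CPM or more there and over 2 times the vSVZ mean. C1qa averaged 0.843 CPM in vSVZ and 142 in RoB, Ctss 0.711 and 92.7, and Csf1r 0.186 and 60.7. Of 11 oligodendrocyte precursor markers, which summed to 30.5 to 180.1 CPM (median 45.2) in vSVZ and 109.8 to 535 CPM (median 178) in RoB, 2 were tested, Olig1 (12.4 to 74.8 CPM (median 29.3) in vSVZ and 71.8 to 219.9 CPM (median 120.2) in RoB, -1.92 ± 0.21) and Olig2 (-1.59 ± 0.27). Olig2 is also known from some astrocytes. Of the 11 markers, 9 were under 10 CPM on average, and without cells holding more than 2 UMIs of other cell types' lists the differences were -1.84 and -1.55, still called. In that setting 632 genes were called, 561 of them among the 676.

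Ependymal markers summed to 24.01 to 535 CPM (median 159) in vSVZ and 25.1 to 117 CPM (median 47.03) in RoB, with a higher mean in vSVZ for 13 of 13, neuroblast markers to 285 to 1106 CPM (median 466) in vSVZ and 359.7 to 779 CPM (median 482) in RoB and neuron markers to 95.01 to 223 CPM (median 129) in vSVZ and 55.7 to 158 CPM (median 88.2) in RoB. Endothelial and mural markers summed to 79.4 to 226 CPM (median 111) in vSVZ and 85.1 to 426 CPM (median 114) in RoB, oligodendrocyte markers to 19.97 to 73.6 CPM (median 47.2) in vSVZ and 46.2 to 319 CPM (median 64.5) in RoB and choroid plexus and meningeal markers to 27.96 to 60.2 CPM (median 39.2) in vSVZ and 17.5 to 122 CPM (median 38.7) in RoB. Olfactory ensheathing glia markers summed to 173 to 308 CPM (median 197) in vSVZ and 101 to 492 CPM (median 159) in RoB. The markers Sp9, Ly6c1, Kcnj8, Gpr17, Bmp4, Kcnj13 and, by the rule, Frzb had no UMI in any sum. Of 7 neuroblast markers tested, Sox11 was called higher in vSVZ and 3 higher in RoB, among them Sp8 and Nrxn3. Of 3 neuron markers tested, Stmn3 was called higher in vSVZ, and of 4 ensheathing glia markers, Prss56 was called higher in vSVZ and 1 other in RoB. In sums, fewer cells with a gene and less RNA of it per cell cannot be told apart.

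The genes that chose the cells are given without a test. Slc1a2 was at 7371 to 11484 CPM (median 10454) in vSVZ and 4783 to 7029.5 CPM (median 6303) in RoB. Slc1a3, the gene of the sorted GLAST antigen, was at 2451 to 3686 CPM (median 3219) in vSVZ and 3499 to 4492 CPM (median 4132) in RoB, higher in RoB in 8 of 8 mice, and Aqp4 was at 489.9 to 697 CPM (median 609) in vSVZ and 619.7 to 1133 CPM (median 763) in RoB. Thbs4 ranged from 9.61 to 31.95 CPM in vSVZ and from 0 to 5.96 in RoB.

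Whether the tissue difference itself changed with age was tested as the mean difference of the 2 old libraries minus that of the 2 young ones. Of 7476 genes, 5 (0.0669%) passed by edgeR, 4 (0.0535%) with a change toward vSVZ and 1 (0.0134%) toward RoB, where 411 had an unadjusted p under 0.05, and none passed by DESeq2, where 64 had one. Sp8 changed by -3.66 ± 0.57 (SE), adjusted p = 0.0023, so that it was relatively lower in vSVZ of old mice. The 4 old vSVZ sums held 0 to 8 UMIs of it, so the size of this change depends on the prior count of the fit. Its vSVZ level was 7.91 to 15.7 CPM in young and 0 to 3.49 in old mice, and its RoB level 50.6 to 181 and 96.9 to 156. Hs3st3a1, a heparan sulfate sulfotransferase gene (2.05 ± 0.36 (SE), adjusted p = 0.00647), was at 3.99 to 6.78 CPM in young and 24.9 to 42.8 in old vSVZ, without overlap, and at 35.8 to 184 and 103 to 121 in RoB. Young and old levels of both genes overlapped in the RoB.

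Sparc, a secreted matrix protein gene, changed by 0.91 ± 0.18 (SE), adjusted p = 0.0313, with 276 to 513 CPM in young and 383 to 828 in old vSVZ and 712 to 1605 and 642 to 956 in RoB. The highest RoB sum was KO young mouse 2. Adamts18, a metalloprotease gene (4.49 ± 0.85 (SE), adjusted p = 0.0184), had 0 UMIs in both WT old RoB sums, so the size of its change depends on the prior count of the fit, and its RoB level was 23.1 to 47.7 CPM in young and 0 to 9.32 in old mice. Without cells holding other cells' markers the change of Sparc was 0.74 and not called. Without WT old mouse 2 no gene passed for age, and without KO young mouse 2 there were 26.

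Receptor loss was tested in the same way, as the mean difference of the 2 KO libraries minus that of the 2 WT ones. Here 6 of 7476 genes (0.0803%) passed by edgeR, 2 (0.0268%) with a change toward vSVZ and 4 (0.0535%) toward RoB, where 528 had an unadjusted p under 0.05, and none by DESeq2, where 105 had one. Agt, the angiotensinogen gene, changed by -1.24 ± 0.195 (SE), adjusted p = 0.00337. Its RoB level in the KO mice was 346 and 477 CPM at the young and 127 and 270.3 at the old age, and in the WT mice 55.7 and 75.01 at the young and 139 and 169.5 at the old age. The homeobox gene Nkx6-2 changed by -2.13 ± 0.36 (SE), adjusted p = 0.00503, with RoB levels in the same order of 140.0 and 205, then 12.7 and 63.4, then 5.57 and 11.5, then 22.7 and 62.8 CPM. For both genes the KO young RoB sums were the highest.

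Vim, an intermediate filament gene, changed by -1.299 ± 0.25 (SE), adjusted p = 0.0231, with 151 to 445 CPM in WT and 93.4 to 154 in KO vSVZ and 140.5 to 393 and 169 to 441 in RoB. Riiad1 changed by -1.41 ± 0.29 (SE), adjusted p = 0.0362, with 63.3 to 91.9 and 32.7 to 50.9 CPM in vSVZ and 38.3 to 84.6 and 68.5 to 155 in RoB. The 2 genes with a change toward the vSVZ were Pla2g7, which encodes a phospholipase (0.72 ± 0.14 (SE), adjusted p = 0.0231), and Galnt18, a glycosyltransferase gene (1.53 ± 0.31 (SE), adjusted p = 0.0362). Pla2g7 remained higher in RoB in 8 of 8 mice, at 909 to 1175 CPM in WT and 1214 to 1446 in KO vSVZ and at 2365 to 3051 and 1848 to 2564 in RoB. Galnt18 was at 15.98 to 32.5 and 38.4 to 45.2 CPM in vSVZ and at 48.1 to 94.6 and 29.2 to 95.1 in RoB. Leaving out either of the WT old mice left 1 gene called for genotype, and without KO young mouse 1 there were 81. With 1 reaction per condition, genotype and age cannot be told apart from the reaction.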

How the data were processed

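Single-cell RNA-seq libraries were made with 10x Chromium 3' v3.1 chemistry and TotalSeq-A hashtags. Per the labels the reads were processed by the authors with kallisto and bustools on GRCm38 and with Scanpy 1.6.0, and the deposited values used here are UMI counts per gene and barcode and hashtag counts per barcode, not normalized. Libraries held 27096070 to 78028524 UMIs over all barcodes. All cell calls were made anew from these counts. Counts of the members were summed per library and hashtag, and tested with edgeR 4.0.16 (filterByExpr, TMM, quasi-likelihood, limma 3.58.1) with mouse as a block. A second fit had a tissue effect per library. Sums under 20 cells would have been left out. In simulated sums with 200 genes changed by 1 on the log2 scale, 88.5% were recovered with 14 false calls over all mice (7376 genes tested), 26.0% in WT young (7376), and 35.5% for age (7390). Deviations of same-numbered sums correlated at 0.0611, -0.0186, -0.18 and 0.0747 (WT young, WT old, KO young, KO old), so the data do not show that same-numbered sums are 1 mouse. Gene positions are from GENCODE vM21. A gene symbol was found for 32158 of 32287 identifiers. Cyr61 is listed under its symbol Ccn1, and 1 of 42 genes of the interferon list had no match. Genes were named by the rule on leading genes in the text, and from each list up to 4 called genes with the lowest p (all for receptors), up to 5 per direction for age and genotype. Genes of the lists named beyond that were chosen after their values were seen. Some genes that met these rules are not reported here. The members, lists and alternatives were chosen with earlier results of these data known. Doublets were predicted by Scrublet and left out in an alternative. The labels do not say that the numbers are separate mice, so p-values measure the spread between these sums, which may be technical. 1 sample whose label gave no group was not used. DESeq2 1.42.0 was an alternative. R 4.3.3, Python 3.11.15 and scipy 1.17.1 were used.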

Additional observations from a re-analysis of the deposited data

Results flagged for a closer look

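In all, 98 groups of values were examined. They were the named genes, and the median UMIs, the mitochondrial share and the eYFP share in each tissue. Of these, 8 genes had 1 mouse whose log2 difference of vSVZ minus RoB (with 5 CPM added to each level) stood apart from the other 7. Chance alone flags about 1 in 20 groups. In KO young mouse 2 these were Msx1 at 2.27 (median of the 8 mice 1.01), Gm5083 at 2.55 (0.798), Prss23 at -0.88 (-2.67), Slc25a18 at -2.89 (-1.96) and Lgals3bp at 0.82 (-0.797). Pax6 was at 0.091 in KO young mouse 1 (-1.07), Kcnj10 at -1.88 in WT young mouse 1 (-0.98) and Kcnj16 at -0.61 in KO old mouse 2 (-1.92). The RoB sums of the KO young mice held 40 and 46 cells.

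The difference between the tissues itself differed with age by edgeR for the genes described, as log2 changes of 2.05 for Hs3st3a1, 4.49 for Adamts18, 0.91 for Sparc and -3.66 for Sp8. For 6 genes it differed with genotype, by 0.72 for Pla2g7, 1.53 for Galnt18, -1.24 for Agt, -2.13 for Nkx6-2, -1.299 for Vim and -1.41 for Riiad1. DESeq2 called none of these (64 genes for age and 105 for genotype had an unadjusted p under 0.05 there).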

How the results depend on the processing

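Over all mice, 676 genes were called, and counts stayed within 1.5 times of this with no replicate block (794), other size factors (673), another count filter (673), the looser hashtag call (886), and with predicted doublets (697), eYFP cells (667), cells under 10 astrocyte UMIs (648) or cells with other cells' markers (632) left out. They were 439 with DESeq2, 1161 with no count filter, 156 with the stricter hashtag call (WT mice only), 148 with each cell thinned to 1000 UMIs, 307 with each sum thinned, 34 without Igfbp2 or Islr cells and 390 without the WT old library. The thinned settings tested fewer genes (1663 and 3876). The sizes moved with the hashtag call as well. The median absolute log2 difference of the 676 genes was 0.64 with the main call and 0.49 with the looser one. For the 481 of them tested with the stricter call it was 0.52 with the main call in all mice and 0.62 with the stricter one in the WT mice only. Of these, 466 kept their sign. Call and set of mice changed together there, so their parts in the size cannot be told apart. All these genes were chosen for their difference with the main call. Without 1 mouse the count was 534 to 816. In WT young (308) the counts were 84 with DESeq2, 475 with no count filter, 129 with the stricter call, 188 without eYFP cells, 31 and 130 with cells and sums thinned, 7 without Igfbp2 or Islr cells, and 63 to 462 without 1 mouse (63 without its mouse 1, 116 without its mouse 2). In WT old (239) they were 57 with DESeq2, 69 with the stricter call, 31 and 76 thinned, 25 without Igfbp2 or Islr cells, and 47 to 302 without 1 mouse (57 and 47 without its mouse 1 and 2). In KO young (150) they were 51 with DESeq2, 291 with no count filter, 28 and 55 thinned, 45 without Igfbp2 or Islr cells, and 88 to 158 without 1 mouse (88 without its mouse 2). In KO old (130) they were 42 with DESeq2, 215 with no count filter, 215 with the looser call, 14 and 39 thinned, 19 without Igfbp2 or Islr cells, and 29 to 193 without 1 mouse (85 and 29 without its mouse 1 and 2). Leaving out the KO young library gave 468 in WT young and 199 in KO old. Where 1 mouse of a library was left, it was assumed to vary like the others.

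For age (5) the count was 2 with no replicate block, 3 with crossed pairs, 0 with DESeq2, 26 with no count filter, 2 with the looser call, 8 without eYFP cells, 0 and 1 with cells and sums thinned, and 0 to 26 without 1 mouse. Leaving out KO young mouse 1 or 2 gave 14 or 26, WT old mouse 1 or 2 gave 2 or 0, KO old mouse 1 gave 3 and WT young mouse 1 gave 1. For genotype (6) it was 3 with crossed pairs, 0 with DESeq2, 26 with no count filter, 2 with the looser call, 3 without predicted doublets, 0 and 1 thinned, 13 without Igfbp2 or Islr cells, and 1 to 81 without 1 mouse (3 without WT young mouse 1, 1 without either WT old mouse, 81 without KO young mouse 1). Over 90 named gene results, 2153 of 2391 values kept direction and side of the threshold, 230 fell below it, 6 passed it and 2 turned. DESeq2 did not call Gfap, Notch2, S100a10 or Psph. Those that turned were Gfap at 0.0294 with the stricter call and S100a10 at 0.0922 without Igfbp2 or Islr cells. The causes were not tested. With crossed pairs 740 genes were called over all mice. The RoB sums, of 30 to 99 cells, limit the depth, and the smallest held 236735 UMIs. The settings with Igfbp2 or Islr cells, mitochondrial genes, single libraries or crossed pairs left out or changed were chosen after seeing the data.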

Other observations

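Genes named here were chosen after their values were seen. Serine is made from a glycolytic intermediate by Phgdh, Psat1 and Psph, and all 3 genes were called higher in vSVZ. Phgdh was at 784 to 1126 CPM (median 956) in vSVZ and 515 to 756 CPM (median 649) in RoB (0.58 ± 0.0676 (SE), adjusted p = 4.76e-07), without overlap. Psat1 (226 and 169.9 CPM, 0.45 ± 0.102) and Psph (268 and 196 CPM, 0.26 ± 0.0843) were higher in vSVZ in 7 of 8 mice each. Per mouse, with 5 CPM added to each level, Psat1 differed by 0.62 to 0.9 in WT and by -0.097 to 0.24 in KO mice. It was not among the genes called for genotype. The call of Psph was made in 13 of 29 alternative settings and not by DESeq2 (adjusted p = 0.149).

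Slco1c1, a thyroid hormone transporter gene, lay on the same side as Crym. It was at 338 to 505 CPM (median 401) in vSVZ and 151 to 426 CPM (median 256) in RoB (0.701 ± 0.11 (SE), adjusted p = 2.31e-05), higher in vSVZ in 8 of 8 mice. Of 78 genes with a symbol of Rps or Rpl followed by a digit, 4 (5.13%) were called higher in vSVZ over all mice, near the 3.97% of all genes. None was called higher in RoB, and the median log2 difference was 0.22. Most of this set are cytosolic ribosomal protein genes. It also holds the kinase genes Rps6kb1, Rps6kb2 and Rps6ka5 and the gene Rps19bp1, which encode no ribosomal proteins. Within WT young 31 (39.7%, against 1.7% of all genes) were called higher in vSVZ, with a median of 0.56 against a median of 0.13 in WT old and of -0.0154 (young) and 0.12 (old) in the KO libraries. In the same library neuroblast markers summed to 1097 and 1106 CPM in vSVZ and 779 and 512 CPM in RoB, and 4 of 7 tested were called higher in vSVZ, with a median of 1.101. Their part in the ribosomal values was not tested.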
